A study of Mus musculus with 9 samples.

Results

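The genes described here are 9 tight junction genes of the intestinal epithelium: *Cldn2*, *Cldn15*, *Cldn3*, *Cldn4*, *Cldn7*, *Cldn23*, *Ocln*, *F11r* and *Tjp1*. They were chosen by symbol from 54838 gene identifiers measured by bulk RNA-seq. No measured value was in the rule, but earlier results of these data were known when they were chosen. All 9 were among the 12702 genes with at least 1 FPKM (fragments per kilobase of transcript, scaled to the mapped fragments of the library) in at least 2 libraries, and none was below 1 FPKM in any library. In 4-OHT DMSO libraries *Cldn4*, *Cldn3*, *Cldn23*, *Ocln*, *F11r* and *Cldn2* were higher than in EtOH DMSO libraries and *Cldn15* was lower, whereas *Tjp1* and *Cldn7* did not pass the test. No member passed the test for Nec-1 in EtOH organoids.

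Tight junctions seal the space between neighbouring epithelial cells just below their apical surface. Claudins are membrane proteins that build the strands of the junction and set its selectivity. Some of them, such as claudin-2 and claudin-15, form channels for small cations and water, whereas others, such as claudin-3 and claudin-4, are known mainly for tightening the barrier. Occludin and the immunoglobulin-like protein JAM-A lie at the same junctions, and the scaffold ZO-1 ties these membrane proteins to the actin cytoskeleton.

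The libraries came from small intestinal organoids, which are epithelial cultures grown from crypts. Their genotype was *Vil-CreERT2*;*Mettl3* fl/fl, on a strain labelled C57BL/6. Every group carried the floxed *Mettl3* alleles and CreERT2, a recombinase driven by the *Villin* promoter in intestinal epithelium and switched on by 4-hydroxytamoxifen (4-OHT). Organoids received the vehicle ethanol (EtOH) or 4-OHT, and the vehicle DMSO or necrostatin-1 (Nec-1), an inhibitor of the kinase RIPK1. EtOH DMSO, 4-OHT DMSO and EtOH Nec-1 had 2 libraries each and 4-OHT Nec-1 had 1. There was no 4-OHT group without Cre, so 4-OHT itself and recombination cannot be told apart. The labels do not say whether replicates came from separate mice or cultures, so p-values measure the spread between these libraries, which may be technical.

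*Mettl3*, the targeted gene, was 2.70 and 2.71 FPKM in the EtOH DMSO libraries, 2.41 and 2.47 in the EtOH Nec-1 libraries, 3.72 and 4.14 in the libraries labelled 4-OHT DMSO and 3.36 in the library labelled 4-OHT Nec-1. It was thus not lower in any library labelled 4-OHT. The difference between 4-OHT DMSO and EtOH DMSO was 0.41 in log2(FPKM + 1), with an adjusted p of 0.0231 by limma that missed the threshold in 8 of 16 alternatives. These values cover the whole gene and do not show single exons, and every direction given below rests on the labels. Summed FPKM was 450207 to 498712 per library, and the number of sequenced fragments is unknown. All 8 epithelial markers, *Epcam*, *Cdh1* and *Vil1* among them, were expressed, whereas none of 5 fibroblast, 5 endothelial and 5 tuft cell markers reached 1 FPKM in 2 libraries. Of 6 immune markers 3 did, with a summed level between 3.38 FPKM in an EtOH DMSO library and 10.1 in the 4-OHT Nec-1 library.

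*Cldn4* and *Cldn3* lie side by side on chromosome 5 (GRCm38.p6; *Cldn4* from 134945123 to 134946934 and *Cldn3* from 134986214 to 134987476), with 39.3 kb and 0 annotated genes between them. *Cldn15* lies on the same chromosome, from 136967869 to 136975845. The other members are spread over chromosomes X (*Cldn2*, 139800808 to 139811386), 11 (*Cldn7*, 69964779 to 69967886), 8 (*Cldn23*, 35824709 to 35826559), 13 (*Ocln*, 100496504 to 100552718), 7 (*Tjp1*, 65296165 to 65527850) and 1 (*F11r*, 171437561 to 171464593). Sequences from 250 bases before to 50 bases after the annotated start were found in RefSeq (GRCm38.p6) for 8 of the 9 members. Those of *Cldn4*, *Cldn3* and *Cldn15* are shown because they belong to the claudins with the largest rises and to the one that fell, and that of *F11r* because it holds the same AP-1 motif as *Cldn4*. Capitals mark matches, on either strand, to TGANTCA (the AP-1 motif, bound by FOS, JUN and ATF proteins), CACCTG (the E-box bound by Snail, a repressor of junction genes) and GGCGGG (the GC box).
Cldn4 promoter, chr5:134946885-134947184, minus strand: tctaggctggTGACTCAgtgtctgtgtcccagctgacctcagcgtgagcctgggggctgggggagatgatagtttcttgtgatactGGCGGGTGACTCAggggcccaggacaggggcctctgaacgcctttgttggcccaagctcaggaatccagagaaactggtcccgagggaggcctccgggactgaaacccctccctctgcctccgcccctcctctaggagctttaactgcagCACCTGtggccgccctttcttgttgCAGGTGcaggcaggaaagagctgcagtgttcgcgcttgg
Cldn3 promoter, chr5:134985964-134986263, plus strand: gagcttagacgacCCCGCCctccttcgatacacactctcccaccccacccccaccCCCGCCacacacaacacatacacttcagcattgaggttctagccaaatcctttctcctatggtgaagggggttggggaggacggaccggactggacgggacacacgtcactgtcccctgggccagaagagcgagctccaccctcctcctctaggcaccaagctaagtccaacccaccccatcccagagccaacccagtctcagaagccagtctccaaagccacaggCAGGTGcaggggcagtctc
Cldn15 promoter, chr5:136967619-136967918, plus strand: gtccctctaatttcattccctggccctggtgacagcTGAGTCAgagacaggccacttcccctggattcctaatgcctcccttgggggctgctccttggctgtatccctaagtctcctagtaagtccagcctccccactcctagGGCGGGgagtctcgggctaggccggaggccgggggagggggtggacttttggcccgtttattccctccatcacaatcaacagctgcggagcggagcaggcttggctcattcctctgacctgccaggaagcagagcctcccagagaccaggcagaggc
F11r promoter, chr1:171437311-171437610, plus strand: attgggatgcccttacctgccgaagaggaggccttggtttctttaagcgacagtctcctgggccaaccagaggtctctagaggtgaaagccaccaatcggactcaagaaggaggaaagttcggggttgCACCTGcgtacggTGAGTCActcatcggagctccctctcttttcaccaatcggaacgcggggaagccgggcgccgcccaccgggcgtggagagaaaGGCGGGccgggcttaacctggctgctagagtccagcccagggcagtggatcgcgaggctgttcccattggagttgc

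TGANTCA matched at 240 and 158 bases before the *Cldn4* start, 214 bases before the *Cldn15* start and 109 bases before the *F11r* start. It was thus found in 3 of the 8 members, and in 3 of their 10 windows (*Cldn7* and *Ocln* have several starts), against 7.81% of 32851 promoter windows of the same length. The window of *Cldn3* held none. The 3 members with a match included *Cldn15*, which fell, as well as *Cldn4* and *F11r*, which rose. CACCTG was found in 6 of the 10 windows (5 of the 8 members), against 20.2% of all windows. The windows of *Ocln* overlap, and a CACCTG site in their shared bases counts in both. GGCGGG was found in 8 of 10 windows (7 of 8 members), against 35.3%. TGACGTCA, the cyclic AMP response element, matched in *Cldn7* alone, 38 bases before its second annotated start (1.79% of all windows), and TATAAA in *Cldn2* alone, 35 bases before the start (13.6%). AACCNGTT, the Grainyhead motif, matched in 0 of 10 (2.09% of all windows). GGCGGG and TGANTCA lie next to each other in *Cldn4* without sharing a base. The motifs were chosen after the expression values had been seen, and a match describes letters, not binding.

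In EtOH DMSO organoids *Cldn7* and *Cldn3* were the most abundant members, and their ranges overlapped. *Cldn15*, *Cldn4*, *F11r*, *Cldn2*, *Ocln*, *Tjp1* and *Cldn23* followed in this order, and no further pair of neighbours overlapped. By level, *Cldn7* was above 98.1% and *Cldn3* above 98.0% of all genes tested in EtOH DMSO, and *Tjp1* and *Cldn23* were above 74.4% and 62.5%. EtOH Nec-1 libraries had the same order with the same single overlap. In 4-OHT DMSO libraries the order was *Cldn3*, *Cldn4*, *Cldn7*, *F11r*, *Cldn15*, *Cldn2*, *Ocln*, *Cldn23* and *Tjp1*, without overlap between neighbours, and the 4-OHT Nec-1 library followed this second order. FPKM is scaled for transcript length, so levels can be set side by side between genes.

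**Figure D1:**
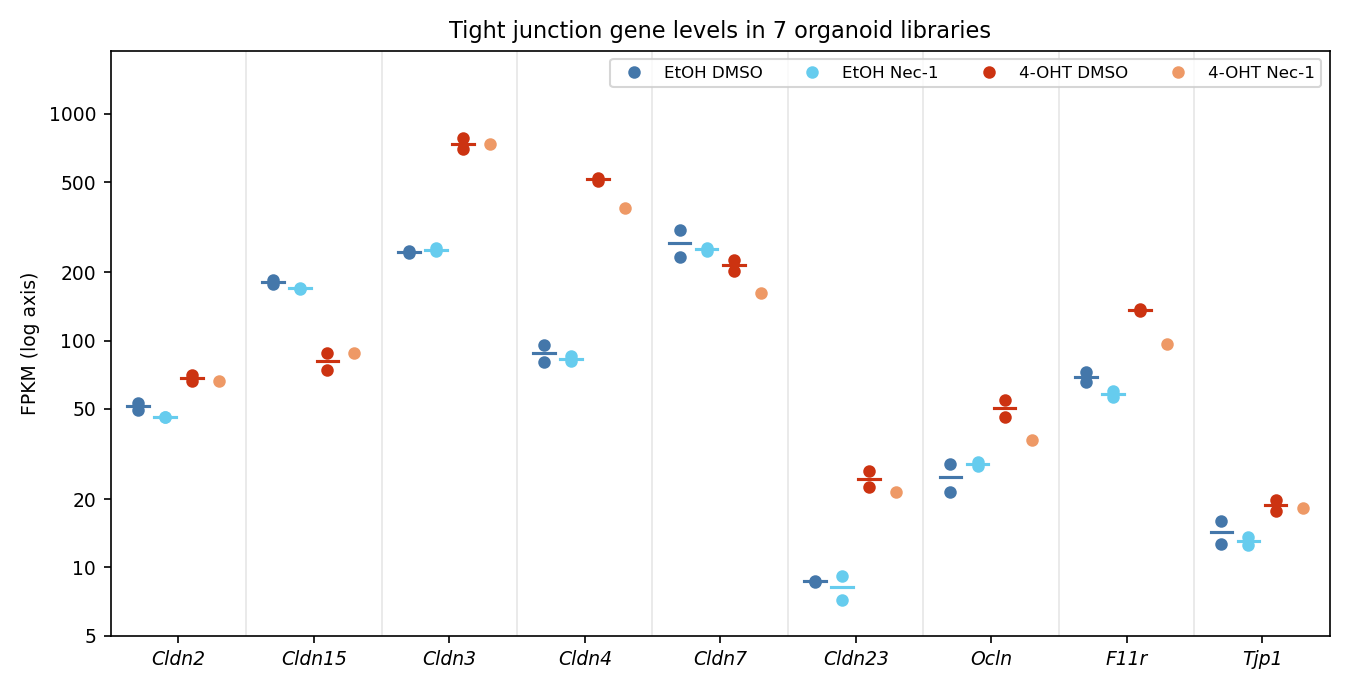
FPKM of the 9 tight junction genes in each of the 7 libraries on a log axis, with 1 point per library and a bar at the mean of groups with 2 libraries. In the libraries labelled 4-OHT *Cldn3* and *Cldn4* stand at 386 to 780 FPKM, against 80.4 to 256 in EtOH libraries, whereas *Cldn15* stands at 74.4 to 88.2 against 170 to 184.

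The comparison of 4-OHT DMSO with EtOH DMSO asks how junction gene expression differs once Cre has been induced. By limma, 6 of the 9 members were higher and 1 was lower (Benjamini-Hochberg adjusted p under 0.05 over all 12702 genes). In the same comparison 24.5% of all genes tested were higher and 16.7% were lower, 41.2% in all. Separation of the libraries was common: both 4-OHT DMSO libraries lay above both EtOH DMSO libraries for 40.7% of all genes tested and below both for 30.8%. The median difference of the members was 0.98 on the log2(FPKM + 1) scale, against 0.08 for all genes tested. Because the members were chosen with earlier results of these data known, these counts and medians are a description only. Differences in this text are on that scale unless said otherwise, and it understates changes of genes with low FPKM.

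Among the barrier-forming claudins, *Cldn4* differed most. *Cldn4* was 80.4 and 95.9 FPKM in the EtOH DMSO libraries, 85.3 and 81.2 in the EtOH Nec-1 libraries, 508 and 521 in the 4-OHT DMSO libraries and 386 in the 4-OHT Nec-1 library. All 3 libraries labelled 4-OHT were far above the 4 EtOH libraries. The mean in 4-OHT DMSO was 5.83 times that in EtOH DMSO, a log2 difference of 2.54 (SE 0.11, adjusted p = 0.000292 by limma).

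*Cldn3*, whose product is a major sealing claudin along the whole gut, was 244 and 248 FPKM in the EtOH DMSO libraries, 256 and 248 in the EtOH Nec-1 libraries, 701 and 780 in the 4-OHT DMSO libraries and 737 in the 4-OHT Nec-1 library. Again the EtOH and 4-OHT libraries did not overlap. The level in 4-OHT DMSO was 3.01 times that in EtOH DMSO (log2 difference 1.58, SE 0.09, adjusted p = 0.000449). A lncRNA gene, *Wbscr25*, overlaps the span of *Cldn3* in the annotation, and the library kit named in the labels does not mark strand, so reads of the pair cannot be told apart.

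*Cldn7*, a claudin of the lateral membrane as well as of the junction, was 306 and 235 FPKM in the EtOH DMSO libraries, 249 and 257 in the EtOH Nec-1 libraries, 204 and 227 in the 4-OHT DMSO libraries and 162 in the 4-OHT Nec-1 library. The 4-OHT libraries were the lowest, but the EtOH DMSO replicates lay 0.38 log2 apart. The difference of -0.31 between 4-OHT DMSO and EtOH DMSO did not pass (95% interval -0.68 to 0.05, adjusted p = 0.136). It passed without the second EtOH DMSO library (-0.51, adjusted p = 0.0331) and with upper quartile scaling (-0.48, adjusted p = 0.0466).

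*Cldn23*, which is known from differentiated cells of the gut surface, was the least abundant member in EtOH organoids. It was 8.74 and 8.61 FPKM in the EtOH DMSO libraries, 9.19 and 7.17 in the EtOH Nec-1 libraries, 22.5 and 26.5 in the 4-OHT DMSO libraries and 21.6 in the 4-OHT Nec-1 library. The libraries labelled 4-OHT were all above the EtOH libraries. The mean in 4-OHT DMSO was 2.83 times that in EtOH DMSO (log2 difference 1.39, SE 0.14, adjusted p = 0.00165).

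The channel-forming claudins went in opposite directions. *Cldn15*, which carries sodium back to the lumen of the small intestine, was 184 and 178 FPKM in the EtOH DMSO libraries, 170 and 171 in the EtOH Nec-1 libraries, 74.4 and 88.2 in the 4-OHT DMSO libraries and 88.2 in the 4-OHT Nec-1 library. Among the members that passed the test, it was the one whose 4-OHT libraries stood below the EtOH libraries. The mean in EtOH DMSO was 2.23 times that in 4-OHT DMSO (log2 difference -1.15, SE 0.10, adjusted p = 0.00125).

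*Cldn2*, the cation channel claudin of crypts, was 49.7 and 53.2 FPKM in the EtOH DMSO libraries, 46.1 and 46.1 in the EtOH Nec-1 libraries, 66.1 and 70.8 in the 4-OHT DMSO libraries and 66.6 in the 4-OHT Nec-1 library. The 4-OHT libraries lay above the EtOH libraries, by less than for *Cldn3*, *Cldn4* and *Cldn23*. The ratio of the means was 1.33 between 4-OHT DMSO and EtOH DMSO, a log2 difference of 0.40 (SE 0.08, adjusted p = 0.0126). With upper quartile scaling the difference was 0.24 and the adjusted p 0.051, so this call depended on the scaling.

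*Ocln* encodes occludin, a membrane protein that takes part in the remodelling of junctions. It was 28.7 and 21.5 FPKM in the EtOH DMSO libraries, 29.2 and 28.1 in the EtOH Nec-1 libraries, 54.9 and 46.2 in the 4-OHT DMSO libraries and 36.5 in the 4-OHT Nec-1 library. The 4-OHT DMSO libraries were highest and the 4-OHT Nec-1 library lay between them and the EtOH libraries. Between 4-OHT DMSO and EtOH DMSO the ratio of the means was 2.01 (log2 difference 0.99, SE 0.16, adjusted p = 0.00646). A snoRNA gene lies within the span of *Ocln* in the annotation, and no other gene overlaps the remaining members apart from *Cldn3*.

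*F11r* encodes JAM-A, an adhesion protein that recruits polarity proteins to the forming junction. It was 65.5 and 72.9 FPKM in the EtOH DMSO libraries, 59.8 and 56.5 in the EtOH Nec-1 libraries, 136 and 138 in the 4-OHT DMSO libraries and 97.1 in the 4-OHT Nec-1 library. As for *Ocln*, the 4-OHT Nec-1 library was intermediate. The mean in 4-OHT DMSO was 1.98 times that in EtOH DMSO (log2 difference 0.98, SE 0.09, adjusted p = 0.00123).

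*Tjp1*, the gene of ZO-1, was 12.7 and 16.0 FPKM in the EtOH DMSO libraries, 13.7 and 12.5 in the EtOH Nec-1 libraries, 19.9 and 17.7 in the 4-OHT DMSO libraries and 18.4 in the 4-OHT Nec-1 library. The 4-OHT libraries lay above the EtOH libraries. Their difference of 0.38 in DMSO did not pass (95% interval 0.04 to 0.71, adjusted p = 0.0712). Without the second EtOH DMSO library it was 0.53 and passed (adjusted p = 0.0392).

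**Figure D2:**
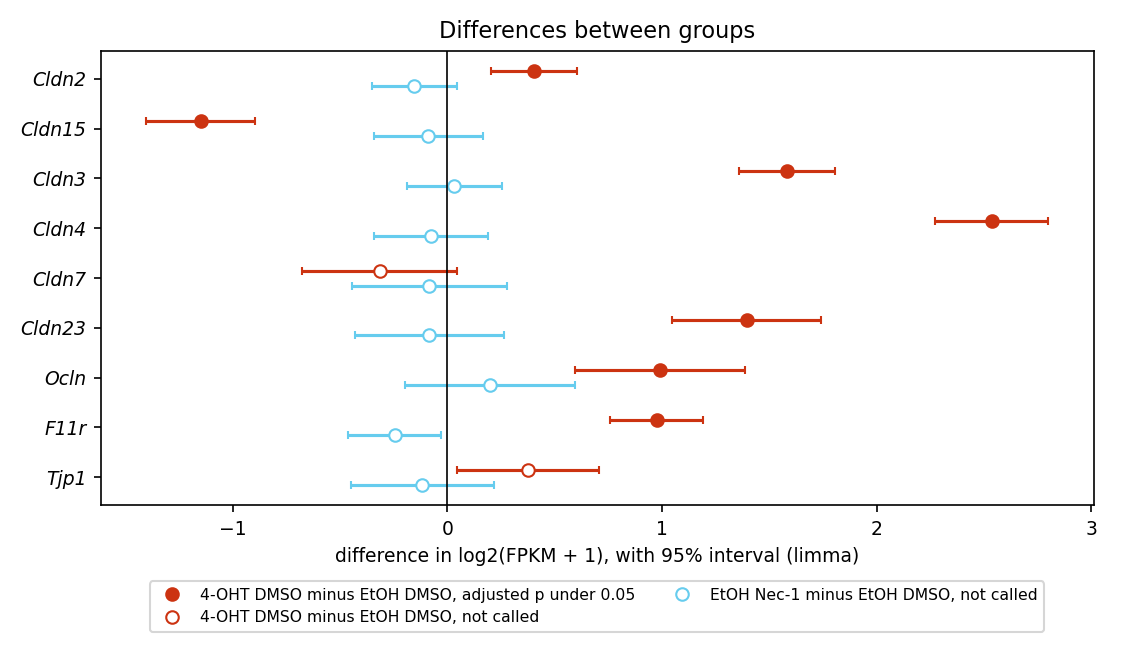
Difference in log2(FPKM + 1) between 4-OHT DMSO and EtOH DMSO (red) and between EtOH Nec-1 and EtOH DMSO (blue) for each of the 9 genes, with 95% intervals from limma. Filled points have an adjusted p under 0.05. They are 7 of the red points, from -1.15 for *Cldn15* to 2.54 for *Cldn4*, and none of the blue.

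Centring each library on its median turned the balance over all genes in this comparison, from 3117 higher and 2120 lower to 2213 higher and 3187 lower, and moved the median of all genes from 0.08 to -0.08. With that centring 6 members were still higher and 1 lower, among them *Cldn4* at 2.38 and *Cldn15* at -1.31.

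Cell type markers moved in the same libraries. Of the 8 markers of the epithelium as a whole 5 were higher and 1 was lower in 4-OHT DMSO, with sums of 3513 to 4008 FPKM against 3160 to 3314. The summed FPKM of 6 Paneth cell markers was 7399 to 8169 in EtOH DMSO and 19155 to 19688 in 4-OHT DMSO, and all 6 were higher. Goblet cell markers summed to 1325 to 1416 against 2093 to 2407 (6 of 7 higher) and enteroendocrine markers to 418 to 427 against 920 to 1054 (7 of 7 higher). Enterocyte markers summed to 1428 to 1491 against 1117 to 1176, with 2 higher and 4 lower of 8 tested, and 3 of 5 stem cell markers were lower. None of these lists has a defining marker at 0 in every library. Their part in the changes of the junction genes was not tested, and fewer cells of a type and less RNA per cell cannot be told apart in bulk RNA.

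Because claudins of different kinds share the same strands, their proportions were compared within each library. The 6 claudins together summed to 874 and 818 FPKM in the EtOH DMSO libraries, 815 and 810 in the EtOH Nec-1 libraries, 1575 and 1714 in the 4-OHT DMSO libraries and 1462 in the 4-OHT Nec-1 library. They made up 97.7% to 99.3% of the FPKM of all claudin genes measured. The higher sum in the libraries labelled 4-OHT was made up mainly of *Cldn3* and *Cldn4*.

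*Cldn4* took 9.20% to 11.7% of this sum in the 4 EtOH libraries, 32.2% and 30.4% in the 4-OHT DMSO libraries and 26.4% in the 4-OHT Nec-1 library. The share of *Cldn15* was 20.8% to 21.7% in the EtOH libraries, 4.72% and 5.15% in the 4-OHT DMSO libraries and 6.04% in the 4-OHT Nec-1 library. *Cldn7* held 28.7% to 35.0% in the EtOH libraries and was at 11.1% to 13.3% in the libraries labelled 4-OHT. *Cldn3* held 28.0% to 31.4% in EtOH libraries and 44.5% to 50.4% in those labelled 4-OHT, where it was the largest of the 6.

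The ratio of channel-forming (*Cldn2* and *Cldn15*) to barrier-forming claudins (*Cldn3*, *Cldn4* and *Cldn7*) was 0.371 and 0.3995 in the EtOH DMSO libraries, 0.366 and 0.370 in the EtOH Nec-1 libraries, 0.0995 and 0.104 in the 4-OHT DMSO libraries and 0.120 in the 4-OHT Nec-1 library. All EtOH libraries were thus above all libraries labelled 4-OHT. The level of *Cldn15* was 3.34 to 3.71 times that of *Cldn2* in EtOH libraries and 1.13 to 1.33 times in those labelled 4-OHT. These ratios follow from the values of the single genes and carry no test of their own.

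**Figure D3:**
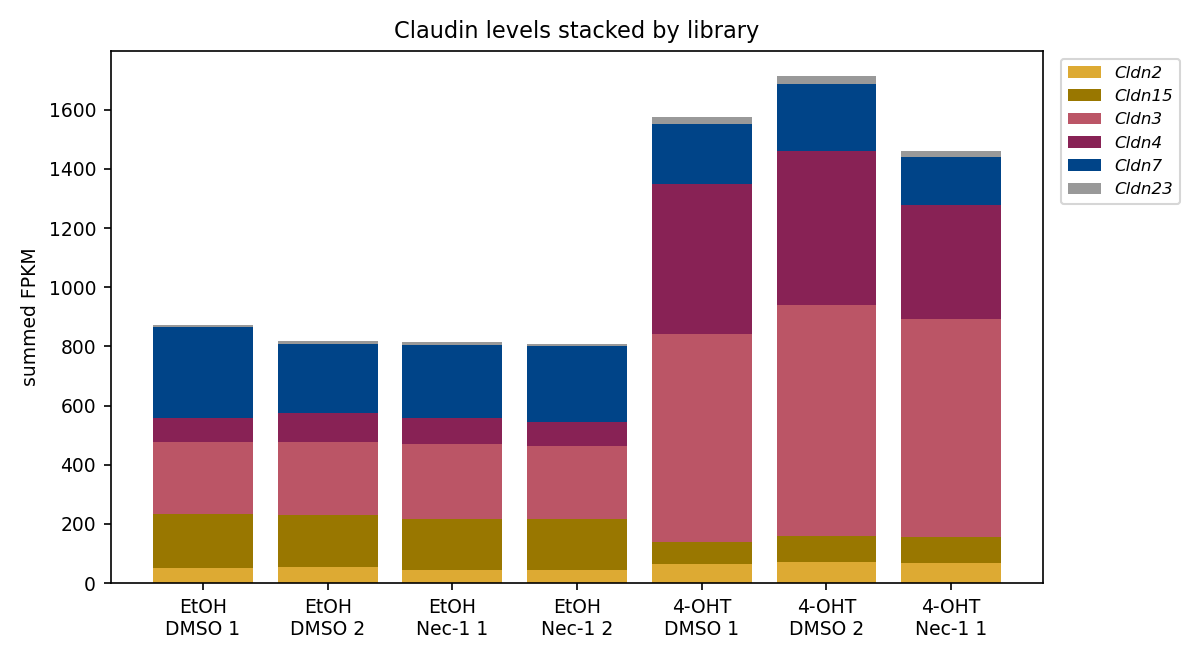
Summed FPKM of 6 claudins in each library, stacked by gene from 0. The 4 EtOH stacks reach 810 to 874 FPKM and the 3 stacks labelled 4-OHT reach 1462 to 1714, with wider *Cldn3* and *Cldn4* blocks and a narrower *Cldn15* block.

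Nec-1 in EtOH organoids was compared with DMSO, with the same EtOH DMSO libraries as above. By limma 0 of the 9 members passed, against 0.22% of all genes (0.173% higher and 0.0472% lower). An unadjusted p under 0.05 was found for 1 of the 9, against 13.3% of all genes. The gene with the unadjusted p under 0.05 was *F11r* (difference -0.25, 95% interval -0.46 to -0.03, adjusted p = 0.337). Its EtOH Nec-1 libraries were both below the EtOH DMSO libraries, as for 39.1% of all genes tested. *Cldn4* differed by -0.08 (interval -0.34 to 0.19) and *Cldn3* by 0.03 (interval -0.19 to 0.26). The widest interval was that of *Ocln*, from -0.20 to 0.59 around 0.20, and that of *Cldn7* reached from -0.45 to 0.28 around -0.08.

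For *Cldn15* the difference was -0.09 (interval -0.34 to 0.17) and for *Cldn2* it was -0.15 (interval -0.35 to 0.05). Both EtOH Nec-1 libraries lay below both EtOH DMSO libraries for these genes, as they did for 39.1% of all genes tested, and the median difference of all genes was -0.09. With median centring the differences of *Cldn15* and *Cldn4* turned to 0.01 and 0.02. *Cldn23* differed by -0.08 (interval -0.43 to 0.26) and *Tjp1* by -0.12 (interval -0.45 to 0.22), with overlapping groups. Enterocyte markers summed to 1153 to 1158 FPKM in EtOH Nec-1, below the 1428 to 1491 of EtOH DMSO, with 1 of 8 lower by the test. Stem cell markers summed to 32.6 to 34.8 against 46.1 to 47.8, Paneth markers to 8684 to 8874 against 7399 to 8169, goblet markers to 1475 to 1493 against 1325 to 1416 and enteroendocrine markers to 435 to 480 against 418 to 427, with 0 called. Their part in these values was not tested.

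Nec-1 in 4-OHT organoids rested on 1 library, so its values were set beside the 4-OHT DMSO libraries without a test of their difference. These DMSO libraries are the same as in the comparison with EtOH DMSO. The 4-OHT Nec-1 library was below both of them for 5 members, above both for 1 and between them for 3. Over all 12036 genes that averaged 1 FPKM or more there, 50.6% were below both and 24.5% above both. So 5 of 9 below and 1 of 9 above is close to what all genes showed.

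*F11r* lay 0.49 below the mean of the 4-OHT DMSO libraries, *Ocln* 0.46, *Cldn4* 0.41, *Cldn7* 0.40 and *Cldn23* 0.17. In FPKM, the 4-OHT Nec-1 level was 0.710 times the DMSO mean for *F11r*, 0.721 times for *Ocln*, 0.751 times for *Cldn4* and 0.753 times for *Cldn7*. *Cldn3*, *Cldn2* and *Tjp1* lay within the DMSO range. *Cldn15* was counted above both although it equalled one of them to the first decimal (88.2 FPKM in each), and *Cldn23* lay 0.06 and 0.29 below the single DMSO libraries.

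With each library centred on its median, 32.4% of all genes were below both and 41.3% above both, and the median of all genes moved from -0.09 to 0.03. *F11r* (-0.38), *Ocln* (-0.34), *Cldn4* (-0.30) and *Cldn7* (-0.29) were then still below both, and *Cldn23* was not. *Cldn2* (0.08) and *Cldn3* (0.11) joined *Cldn15* above both. The values in brackets are differences from the mean of the DMSO libraries, not from the nearer library. Paneth markers summed to 14695 FPKM and goblet markers to 1897 in the 4-OHT Nec-1 library, below both 4-OHT DMSO libraries, and enterocyte markers to 1300, above both. The enterocyte sum was above only through *Fabp1*, a fatty acid carrier (647 FPKM against 328 and 394), and without it was 653 against 789 and 782. Their part in these values was not tested.

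Against the EtOH Nec-1 libraries, the same library was above both for 7 members and below both for *Cldn15* and *Cldn7*. Over all genes 49.9% were above both and 38.8% below both, and 38.9% and 49.8% with median centring, which left the counts of members as they were. The differences were 2.20 for *Cldn4*, 1.55 for *Cldn3*, 1.31 for *Cldn23*, 0.73 for *F11r*, 0.52 for *Cldn2*, 0.46 for *Tjp1*, 0.34 for *Ocln*, -0.64 for *Cldn7* and -0.94 for *Cldn15*. In the presence of Nec-1, *Cldn4* and *Cldn3* thus remained 4.64 and 2.93 times as high in the library labelled 4-OHT.

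The effect of Nec-1 was also compared between 4-OHT and EtOH organoids as an interaction in limma. The spread of the single library was taken from the other groups, so that the interaction has no replicate check of its own. The share of all genes that passed is not given here, so the outcome for the members has no background. No member passed. The lowest adjusted p was that of *Ocln*, 0.585, with an interaction of -0.65 (95% interval -1.28 to -0.03). For *Cldn4* the interaction was -0.34 (interval -0.76 to 0.08, adjusted p = 0.685), and for *F11r* it was -0.24 (interval -0.59 to 0.10, adjusted p = 0.718). The adjusted p of the remaining members lay between 0.770 (*Cldn7*) and 0.958 (*Cldn3*).

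**Figure D4:**
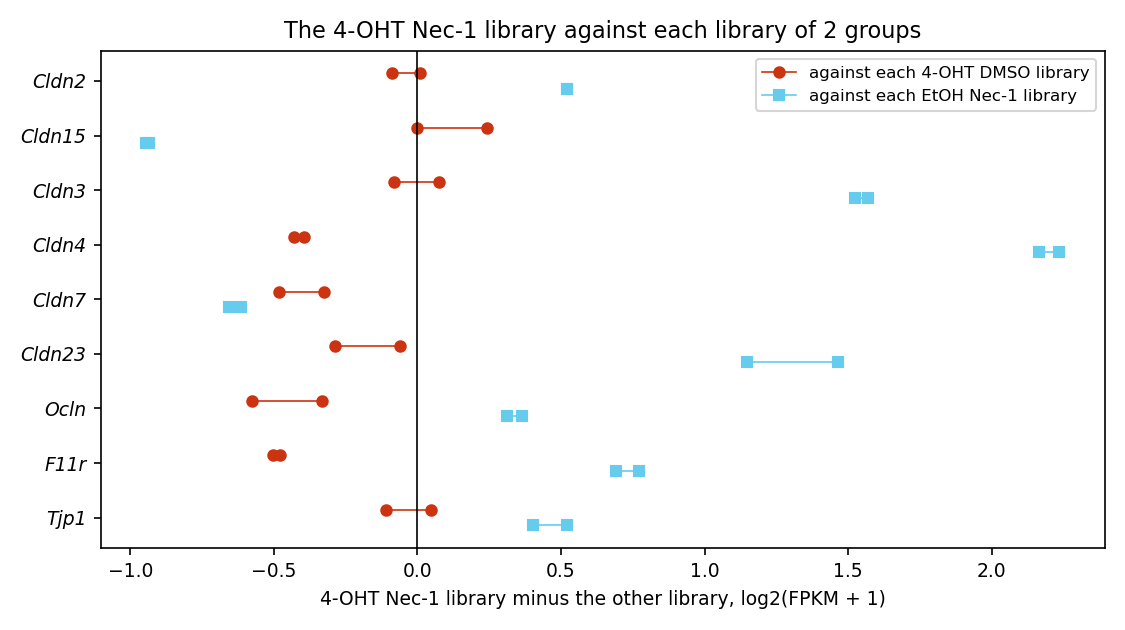
The 4-OHT Nec-1 library minus each 4-OHT DMSO library (circles) and minus each EtOH Nec-1 library (squares) in log2(FPKM + 1), with a line joining the 2 libraries of a group. Circles of *F11r*, *Ocln*, *Cldn4*, *Cldn7* and *Cldn23* are all below 0 (with median centring *Cldn23* no longer lies outside both), and squares are above 0 for all genes but *Cldn7* and *Cldn15*.

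Across the 7 libraries most members moved together. Pearson's r of log2(FPKM + 1), given as a description because the points share the same 4 groups, was 0.99 between *Cldn3* and *Cldn4*, 0.99 between *Cldn23* and each of them and 0.96 between *Cldn4* and *F11r*. *Cldn15* ran opposite to *Cldn4*, with -0.99. For *Cldn7* r was 0.76 with *Cldn15* and between -0.81 (*Tjp1*) and -0.46 (*Ocln*) with the others.

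Among 7012 other genes averaging 5 FPKM or more, those most like *Cldn4* were *Tmcc3* (r = 0.9995) and *Sema7a* (0.9989), and 931 genes reached 0.95. *Cldn3* was most like *Fpgt* and *Plaur* (both 0.998). *Cldn23* was most like *Tubb2a* and *1700016K19Rik*, *Cldn2* most like *Siah2* and *Scaf8*, and *Cldn15* most like *Naprt* and *Neu3*. For *F11r* the closest genes were *Bahd1* and *St14* (both 0.999), the latter encoding matriptase, a membrane protease of epithelial junctions. *Ocln* was closest to *Dnaja1* and *Zcchc17*, and *Tjp1* to *Ptprj* and *Nsd1*. Genes at 0.95 or above numbered 790 for *F11r*, 723 for *Cldn3*, 710 for *Cldn23* and 661 for *Cldn2*. They numbered 479 for *Cldn15*, 139 for *Tjp1* and 79 for *Ocln*. *Cldn7* had the fewest close genes, 26 at 0.95 or above, with *Rab2a* (0.992) and *Tmed3* (0.980) first.

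A list of 74 further genes of tight, adherens and desmosomal junctions and their regulators was counted in the same way. Of these, 54 passed the filter on low values, 1 reached 1 FPKM in a single library and 19 were below it in every library, with 7 of these listed at 0 throughout. In 4-OHT DMSO against EtOH DMSO 18 of the 54 were higher and 4 lower, against 24.5% and 16.7% of all genes, and the median was 0.24 against 0.08. With median centring the counts were 15 higher and 12 lower, against 17.4% and 25.1% of all genes. The balance thus depended on the scaling in the list as it did over all genes.

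Only 3 of 17 other claudins passed the filter. *Cldn8* passed it only through EtOH libraries and *Cldn18* only through those labelled 4-OHT, so that a difference was built into their entry, and for these genes the adjusted p without the filter is given too. *Cldn8*, a tightening claudin best known from colon and kidney, fell with 4-OHT. It was 5.72 and 4.59 FPKM in the EtOH DMSO libraries, 2.86 and 2.83 in the EtOH Nec-1 libraries, 0.348 and 0.393 in the 4-OHT DMSO libraries and 0.343 in the 4-OHT Nec-1 library, so that the 4-OHT libraries were lowest and EtOH Nec-1 lay between. The difference from EtOH DMSO to 4-OHT DMSO was -2.16 (SE 0.13, adjusted p = 0.000482, or 0.00486 without the filter), and that to EtOH Nec-1 was -0.67 (adjusted p = 0.17). *Cldn18*, a claudin of stomach and lung, was 0.214 and 0.151 FPKM with EtOH and DMSO, 0.198 and 0.136 with EtOH and Nec-1, 1.83 and 3.00 with 4-OHT and DMSO and 1.39 with 4-OHT and Nec-1 (difference 1.51, SE 0.19, adjusted p = 0.00335, or 0.0178 without the filter). *Cldn12* was not called (-0.37, adjusted p = 0.0769).

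At tricellular junctions, where the corners of neighbouring cells meet, *Ildr1* and *Lsr* encode angulins. *Ildr1*, which enteroendocrine cells are also known to express, was 0.928 and 1.29 FPKM in the EtOH DMSO libraries, 3.45 and 3.71 in the EtOH Nec-1 libraries, 8.26 and 9.54 in the 4-OHT DMSO libraries and 25.6 in the 4-OHT Nec-1 library. No group overlapped another, and the 4-OHT Nec-1 library was the highest. The difference between 4-OHT DMSO and EtOH DMSO was 2.23 (SE 0.13, adjusted p = 0.000452). That between EtOH Nec-1 and EtOH DMSO was 1.13 (95% interval 0.81 to 1.45) and missed the threshold (adjusted p = 0.0613), which it passed under 5 alternatives, with adjusted p from 0.0341 to 0.0474. *Lsr* and *Marveld3*, of the same group, were higher in 4-OHT DMSO (0.86 and 0.31), the latter with an adjusted p of 0.0479 that missed the threshold in 12 of 16 alternatives, and *Marveld2*, the gene of tricellulin, was not called (0.28, adjusted p = 0.0948).

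Of the adherens junction genes *Nectin2*, *Cdh1* (E-cadherin) and *Nectin4* were higher in 4-OHT DMSO than in EtOH DMSO, by 1.24, 0.66 and 0.70, and *Nectin3* was lower, by a difference of -0.43. *Nectin4* reached 1 FPKM only in the 4-OHT DMSO libraries (1.34 and 1.04), and so entered the test through them. Its adjusted p was 0.0164, 0.0316 without the filter and 0.0744 without the first EtOH DMSO library. *Nectin2*, an adhesion protein of the immunoglobulin family, averaged 49.5 FPKM with EtOH and DMSO, 40.4 with EtOH and Nec-1 and 118 with 4-OHT and DMSO (SE of the difference 0.08, adjusted p = 0.000548) and was 84.3 in 4-OHT Nec-1. The polarity genes *Crb3* and *Pard6b*, whose products set up the apical side, rose by 1.23 and 1.19, whereas *Prkcz* (-0.49) and *Llgl2* (-0.41) fell. The call of *Nectin3* was lost without the first EtOH DMSO library (adjusted p = 0.0621), and those of *Prkcz* and *Llgl2* without the second (adjusted p = 0.113 and 0.0525), among others.

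Other genes of the list that rose were the scaffold *Cgn* (0.49), the desmosomal cadherins *Dsg2* (0.79) and *Dsc2* (0.69), *St14* (0.90), and *Rab13*, *Arhgef2*, *Myh9* and *Mylk* among the regulators of actin and myosin (0.92, 0.78, 0.73 and 0.49). The calls of *Cgn* and *Mylk* were lost in 9 of 16 alternatives each, both scalings among them, and that of *Myh9* without the filter on low values (adjusted p = 0.0513). Of 6 desmosomal genes 2 were called, against 41.2% of all genes in either direction. *Tjp3*, the gene of ZO-3, was not called (-0.18, adjusted p = 0.174).

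**Figure D5:**
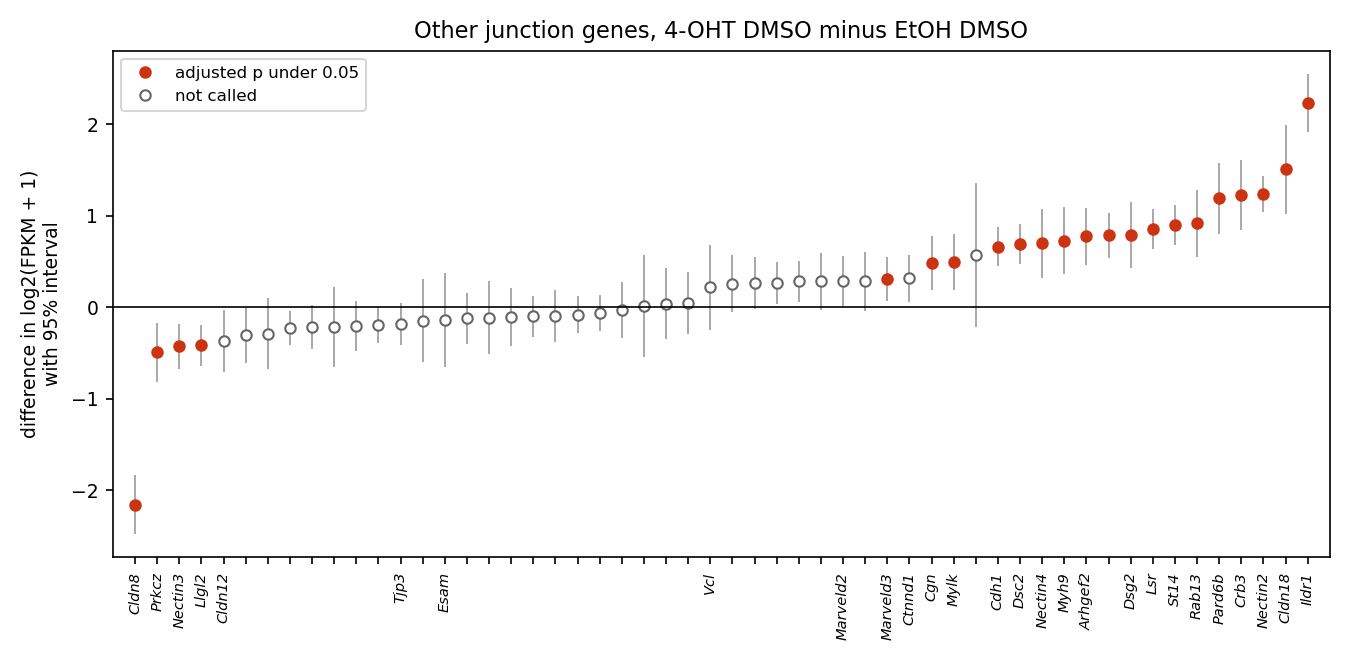
Difference in log2(FPKM + 1) between 4-OHT DMSO and EtOH DMSO for the 54 further junction genes tested, in rising order, with 95% intervals from limma and with names for the genes described in the text. Filled points have an adjusted p under 0.05: 4 below 0, from *Cldn8* at -2.16, and 18 above 0, up to *Ildr1* at 2.23.

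With Nec-1 in EtOH organoids 0 of the 54 genes passed in limma, and 12 had an unadjusted p under 0.05, against 13.3% of all genes. In the 4-OHT Nec-1 library 37 of 53 were below both 4-OHT DMSO libraries and 9 above both. Over all genes the shares were 50.6% and 24.5%. With median centring 25 were below both and 19 above both, against 32.4% and 41.3% of all genes. *Ildr1* (1.43), *Esam* (0.80) and *Vcl* (0.62) had the largest differences above, and *Ctnnd1* (-1.11), *Rab13* (-0.65) and *Cldn18* (-0.49) the largest below. *Ctnnd1* encodes p120-catenin, which holds E-cadherin at the membrane. It was 64.6 and 64.3 FPKM in the 4-OHT DMSO libraries and 29.4 in the one with Nec-1, against 46.5 to 56.5 in the EtOH libraries, so that the 4-OHT Nec-1 library was the lowest of the 7. Against EtOH Nec-1 the same library was above both for 29 of 52 junction genes and below both for 21, against 49.9% and 38.8% of all genes. With median centring the balance turned to 23 above and 27 below, as it also turned over all genes (38.9% above and 49.8% below).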

How the data were processed

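Total RNA of organoids was sequenced on the Illumina HiSeq X platform. The submitters' processing notes name HISAT2 2.1.0, StringTie 1.3.3b and mm10, without their roles, and the annotation is not given in the sources used here. The values deposited by the authors are FPKM of each Ensembl mouse gene in each library. One table held 3 libraries, and 2 repeat columns matched the other tables within a relative difference of 0.00015. No column was left without a sample (0), and 2 CUT&Tag samples were not analysed here.

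limma 3.58.1 (R 4.3.3) with a mean-variance trend was fitted to log2(FPKM + 1) of 12702 genes, those that reached 1 FPKM in 2 or more libraries. The 7 libraries shared a single model of group means with 3 residual degrees of freedom, and p-values were adjusted by Benjamini-Hochberg with a threshold of 0.05. The single 4-OHT Nec-1 library was compared by whether it lay outside both libraries of another group. The limma interaction that uses this library took its spread from the other groups. The interaction was added after the data had been seen. The limma step was run on simulated data with independent normal values and a far smaller share of changed genes than was called here. That simulation did not address the choice of scaling. Symbols of 54723 of the 54838 identifiers came from a name table, and *Igsf5*, with several identifiers, was taken from the one with the higher mean. Fragment counts are not in the tables, and from the steps between low FPKM values the depth of each library relative to EtOH DMSO replicate 1 was put at 0.853 to 1.04. Python 3.11.15, pandas 2.3.3, numpy 2.4.6 and matplotlib 3.10.9 were used.

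The members, lists, motifs and alternatives were chosen with earlier results of these data known. Of the junction list, *Mpp5* was entered under this older symbol and a claudin without a match was dropped after the files had been read. The genes named are the members, *Mettl3*, the up to 5 largest called rises and falls of the junction list, its 3 largest differences either way in 4-OHT Nec-1, the 2 genes most correlated with each member, and cell type markers. Further called genes of the list, and *Cldn12*, *Marveld2* and *Tjp3*, were added after their values had been seen. The value of 1 gene of the list is not reported here.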

Additional observations from a re-analysis of the deposited data

How the results depend on the processing

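*Cldn4*, *Cldn3*, *Cldn23*, *Ocln*, *F11r* and *Cldn15* kept direction and call between 4-OHT DMSO and EtOH DMSO under all 16 alternatives run for each, and *Cldn2* lost its call in 1. Members called numbered 7 to 9 without 1 library and 4 at 1 log2 unit or more. Junction genes called numbered 16 to 23 without 1 library and 6 at 1 log2 unit or more. The share of all genes called at 1 log2 unit or more is not given here, so these counts have no background. The *Mettl3* call (0.41, adjusted p = 0.0231) was lost under both scalings, for the 4 libraries alone and without most single libraries, down to 0.25. For Nec-1 in EtOH organoids no alternative called a member. It called 1 junction gene, *Ildr1*, with median centring, with upper quartile scaling and with only the 4 libraries compared, and 0 to 1 without 1 library. In 4-OHT Nec-1 against 4-OHT DMSO, 0 members and 2 junction genes lay 1 log2 unit or more outside both libraries. Over all genes 0.764% lay 1 log2 unit or more above both 4-OHT DMSO libraries and 1.21% below both. Against EtOH Nec-1 the counts at 1 log2 unit were 3 and 3, where 4.24% of all genes lay above both and 1.94% below both. *Crb3* in 4-OHT Nec-1 went from -0.12 to 0.0024 with upper quartile scaling. The mean claudin ratios in EtOH DMSO, EtOH Nec-1, 4-OHT DMSO and 4-OHT Nec-1 were 0.452, 0.429, 0.157 and 0.172 without *Cldn4*, and 0.300, 0.290, 0.0552 and 0.0686 without *Cldn2*. With *Cldn23* they were 0.363 in EtOH Nec-1 and 0.118 in 4-OHT Nec-1.

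Deviations of same-numbered libraries from their group means correlated across genes at -0.04, 0.0065 and -0.012. These values show no pairing by replicate number, but with 2 libraries per group they cannot exclude one. With the replicate block 7 members and 21 junction genes were called for 4-OHT, 0 and 0 for Nec-1 in EtOH, and 2788 higher and 1909 lower genes in all for 4-OHT. With 2 libraries per group and no fragment counts, small differences may be missed.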
